A study of Mus musculus with 6 samples.

Results

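The 4 mouse *Hox* clusters were read out in embryonic stem cells that carried a human *HOXA13* transgene, and in their controls. The members are the 39 mouse *Hoxa*, *Hoxb*, *Hoxc* and *Hoxd* genes whose symbols the count tables list, 11, 10, 9 and 9 of them, together with the human identifier ENSG00000106031, which stands for the transgene. This makes 40 of the 24393 features in each table. All 6 libraries came from KH2 mouse embryonic stem cells, given in the labels as strain C57/BL/6, with 3 cultures of genotype CONTROL and 3 of genotype HOXA13. KH2 cells hold a doxycycline-responsive activator and a single landing site for transgenes. The study targeted the human gene, with its intron and a tag, to that site under doxycycline control and picked clones, whereas the labels state that no treatment was given to the sequenced cultures. Whether doxycycline was present in them is therefore not clear. If it differed between the groups, its effect cannot be told apart from that of the transgene. Both groups were kept undifferentiated with LIF on irradiated 3T3-Swiss albino fibroblasts, so part of the RNA may be of feeder origin. The methods call the 3 cultures of each group biological replicates, picked after targeted clones had been checked for induction, and do not state whether each is a clone of its own, so p-values measure the spread between these cultures.

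*Hox* genes encode homeodomain transcription factors that give cells their position along the body axis. Each cluster holds its genes in the order in which they act, from group 1, the most anterior, to group 13, the most posterior, and *HOXA13* belongs to the last of these, which patterns the hindgut, the genital tubercle and the digits. In pluripotent cells the clusters are held largely silent by Polycomb proteins, and they open from the anterior end when cells differentiate. The question of the comparison here is which of the resident *Hox* genes differed where the human posterior gene was present.

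The transgene readout separated the groups. ENSG00000106031 had 6, 0 and 0 counts in controls against 4298, 4177 and 2881 with the transgene. In CPM, here always after TMM scaling of the libraries, it was at 222 ± 6.87 (SD, n = 3) in the *HOXA13* libraries, a log2 fold change of 10.95 (SE, the standard error, 0.30, adjusted p = 1.93e-06). Tests are edgeR's, by quasi-likelihood, with p adjusted by Benjamini and Hochberg over all features tested. Control counts were few, and over the alternatives the log2 fold change lay between 10.37 and 14.89. In each *HOXA13* library this feature alone had 1.90 to 2.26 times the counts of all 39 mouse *Hox* genes together, and it was the 1003rd, 917th and 972nd most counted feature. The tables do not pair the identifier with a symbol or a length, so this is a ratio of counts and not of molecules.

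The mouse *Hox* genes were low in both groups. Together they had 1498, 1575 and 2036 counts in controls against 1900, 1975 and 1517 in *HOXA13* libraries, out of 13494135 to 21766589 counts per library. Of the 39 genes, 32 had more than 3 counts in every library, 5 reached a mean of 5 CPM over the 6 libraries, 19 lay between 1 and 5 CPM and 15 were under 1 CPM. A level of 3 counts, taken as the smallest that can be shown, is 0.134 to 0.227 CPM, a limit that covers counting error only. *Hoxc11* had at most 2 counts and *Hoxc12* at most 1 in any library.

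Summed over the 39 genes, the level was 66.8, 107 and 102.9 CPM in control and 96.5, 108.7 and 114.7 CPM in *HOXA13* libraries. The groups overlapped, and control replicate 1 was the lowest of all 6 libraries. The 20 fibroblast markers fixed for the feeder cells gave sums of 4953, 7330 and 7288 CPM in control and 6693, 7872 and 8361 CPM in *HOXA13* libraries, again lowest in control replicate 1. All 20 of these markers passed the filter on low counts, none was called higher and 1, *Pdgfra*, was called lower, which is 5% called beside 27.7% of all 13846 features tested (14.4% higher and 13.3% lower). That 1 call was lost without control replicate 3 and without *HOXA13* replicate 1 or 2, and 2 were lower and 1 higher without control replicate 1. Without control replicate 2 also 1 was higher, as with DESeq2, and 2 were with the replicate block. Of mean marker sums of 6524 CPM in control and 7642 CPM in *HOXA13* libraries, *Col1a1* held 2178 and 2773 CPM and *Col1a2* 1646 and 1904 CPM. The sum is thus mostly of these genes, and the KH2 landing site is known to lie at *Col1a1*. Expressed relative to the marker sum, a scale chosen after the values were seen, the *Hox* genes stood at 13.5, 14.6 and 14.1 CPM per 1000 CPM of fibroblast markers in control and at 14.4, 13.8 and 13.7 in *HOXA13* libraries. The means were 14.07 ± 0.56 and 13.98 ± 0.38 (SD, n = 3), so the difference between the groups on this scale was smaller than the spread between replicates. Which cells the *Hox* counts came from was not tested, and in bulk RNA fewer cells of a type and less RNA per cell cannot be told apart.

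Markers of other cell states were also measured. The 10 stem cell markers, all detected, summed to 2484 to 3446 CPM in control and 3434 to 3547 CPM in *HOXA13* libraries, which overlap. Of these, *Sox2*, *Nanog*, *Klf4* and *Esrrb* were called higher and *Tdgf1* lower, 50% of the list beside the 27.7% of all features. The higher count was 2 without control replicate 3 and 1 without each of the *HOXA13* libraries in turn, and the lower count was 2 without control replicate 1 or 2 or *HOXA13* replicate 1. The 15 markers of primitive streak and mesoderm, the first cells to leave pluripotency in which *Hox* genes open, summed to 447.7, 44.7 and 194.4 CPM in control and to 27.2, 27.8 and 25.9 CPM in *HOXA13* libraries, with 5 of the 12 tested called lower, beside 13.3% of all features. Of these 5, *Mixl1*, *Fgf8* and *Wnt3* had fewer than 3 *HOXA13* libraries over the minimum of the filter and 3 control libraries over it, so that their high control values let them be tested, and the count is no result in itself. With limma-voom none was called, and the count ran from 2 to 10 when 1 library at a time was left out, with 10 without control replicate 2, 2 without *HOXA13* replicate 1 and 3 without *HOXA13* replicate 2 or 3. Neural markers summed to 263.8 to 463.8 CPM in control against 148.9 to 156.5 CPM in *HOXA13* libraries. Of the 5 tested, *Pax6*, *Nes* and *Tubb3* were called lower, 60% beside the 13.3% of all features. With any 1 library left out 3 were lower, while the higher count ran from 0 to 1. Endoderm markers summed to 78.4 to 114 CPM in control against 59.4 to 61.5 CPM. The endoderm markers went both ways, with *Gata6* and *Sox7* called higher and *Lama1* and *Pdgfra* lower, 57.1% of the 7 tested. *Lama1* was at 49.0 CPM in control and 10.5 CPM in *HOXA13* libraries, a difference larger than that between the sums, and the other 9 markers together were at 42.0 ± 2.05 and 50.1 ± 0.76 CPM (SD, n = 3). Each of the *HOXA13* libraries left out gave 1 higher, and the lower count ran from 1 (without control replicate 3 or *HOXA13* replicate 1 or 2) to 4 (without control replicate 2). The part of these cells in the *Hox* values was not tested.

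**Figure D1:**
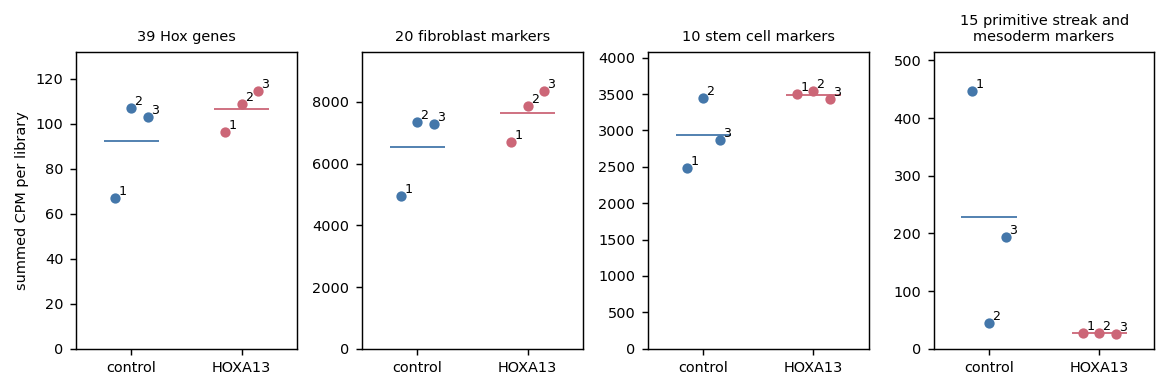
Summed CPM per library (vertical axes, linear from 0) of the 39 Hox genes, 20 fibroblast markers, 10 stem cell markers and 15 primitive streak and mesoderm markers, with control libraries in blue, HOXA13 libraries in red, replicate numbers beside the points and the mean of 3 as a line. Control replicate 1 is the lowest library for Hox genes and for fibroblast markers, and the streak markers lie between 44.7 and 447.7 CPM in control and between 25.9 and 27.8 CPM in HOXA13 libraries.

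By cluster, the *Hoxd* genes were at 32.5 ± 9.25 CPM in control and 36.5 ± 4.05 CPM in *HOXA13* libraries (SD, n = 3), the *Hoxa* genes at 27.4 ± 6.89 and 30.9 ± 3.47 CPM, and the *Hoxc* genes at 13.3 ± 2.55 and 14.95 ± 2.34 CPM. In these 3 clusters the groups overlapped. The *Hoxb* genes were at 14.4 to 21.98 CPM in control and 23.8 to 24.99 CPM in *HOXA13* libraries, without overlap. Summed without *Hoxb9* and *Hoxb13*, a choice made after the values were seen, the other 8 *Hoxb* genes were at 8.78, 13.7 and 13.8 CPM in control and 12.4, 12.1 and 11.6 CPM in *HOXA13* libraries, which overlap. By axial class, the sums were 10.4 and 11.1 CPM for the anterior genes (groups 1 to 3), 25.2 and 26.2 CPM for the central genes (groups 4 to 8) and 56.6 ± 14.2 and 69.3 ± 8.04 CPM for the posterior genes (groups 9 to 13). *Hoxd13* alone took 20.03% to 24.3% of the *Hox* counts of a control library.

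**Figure D2:**
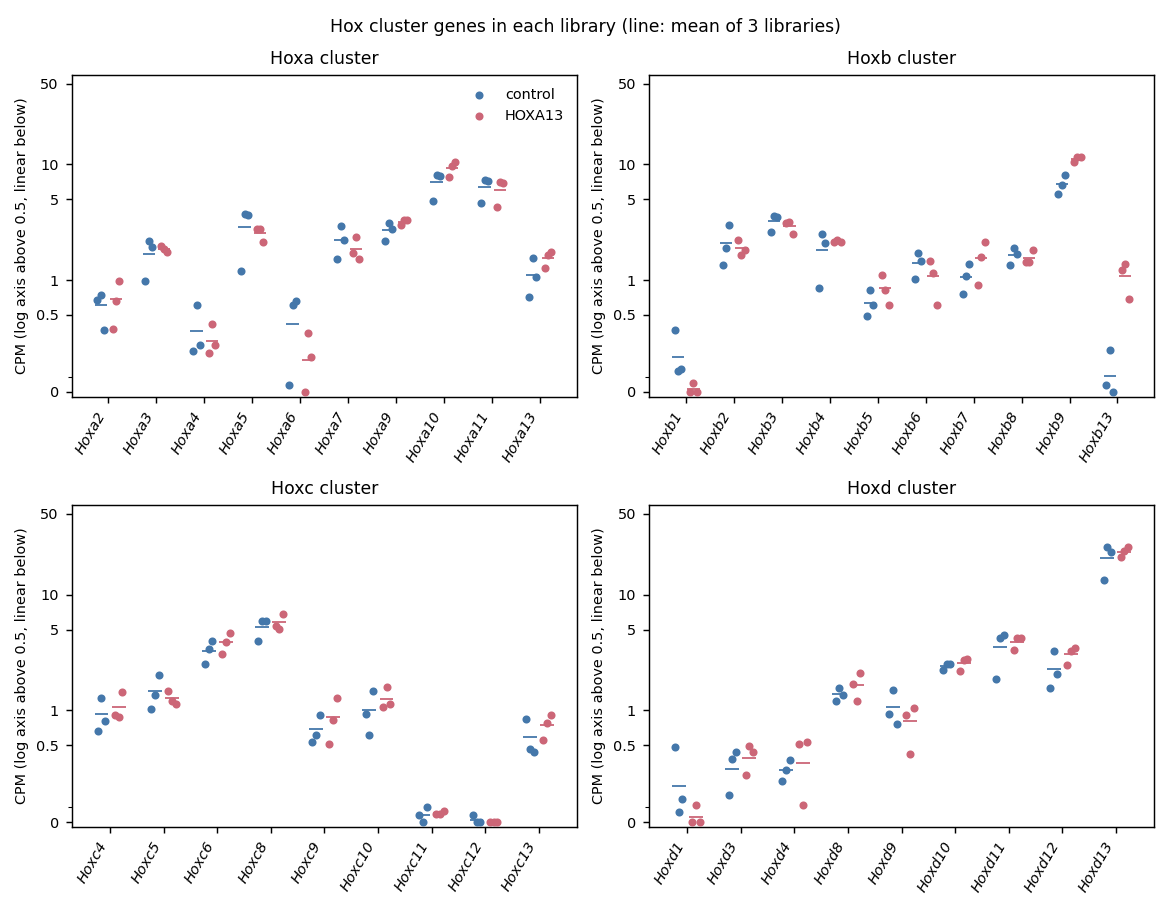
CPM of 38 Hox genes in each library, in 1 panel per cluster with genes in order of paralog group; points are libraries (blue control, red HOXA13), lines are means of 3, and the vertical axis is logarithmic above 0.5 CPM and linear below. The libraries of the groups lie apart, with HOXA13 higher, for Hoxb9 and Hoxb13, while Hoxd13 is the highest gene in both groups.

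Of the 39 *Hox* genes, 31 passed edgeR's default filter on low counts, and *Hoxa4*, *Hoxa6*, *Hoxb1*, *Hoxc11*, *Hoxc12*, *Hoxd1*, *Hoxd3* and *Hoxd4* did not. *Hoxb13* and *Hoxb9* were higher in *HOXA13* libraries at an adjusted p under 0.05, no *Hox* gene was lower, and 29 were not called. *Hoxb13* passed the filter through the *HOXA13* libraries alone, while *Hoxb1* and *Hoxd1*, with fewer counts in *HOXA13* than in control libraries, did not pass it, so the direction of this tally is no result in itself. The share called was 6.45% of those tested, beside the 27.7% of all features, 14.4% higher and 13.3% lower. Over the 30 tested genes described singly here, an unadjusted p under 0.05 in edgeR was reached by 2, both higher, and DESeq2 (28.5% of features called) and limma-voom (27.4%) also called 2 higher and 0 lower *Hox* genes. The groups did not overlap in 2 of these 30, both higher (*Hoxb9* and *Hoxb13*), whereas 45.7% of all features did so, 23.5% in that direction and 22.2% in the other.

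The 31 log2 fold changes had a median of 0.23, beside 0 over all features, and 22 were positive and 9 negative. The 20 fibroblast markers had a median of 0.14. Relative to their sum, the 39 *Hox* genes stood at 14.07 CPM per 1000 in control and 13.98 in *HOXA13* libraries. By cluster, the median log2 fold changes were 0.17 for *Hoxa*, 0.28 for *Hoxb*, 0.24 for *Hoxc* and 0.18 for *Hoxd*, and both called genes belong to the *Hoxb* cluster and to the posterior class. Among 28 genes not called, the log2 fold changes ran from -0.39 to 0.51, with standard errors of 0.205 to 0.423. Their 95% intervals lay within -1 to 1, a doubling or halving, for 15 genes and reached past it for 13, where a change of that size lies within the interval.

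**Figure D3:**
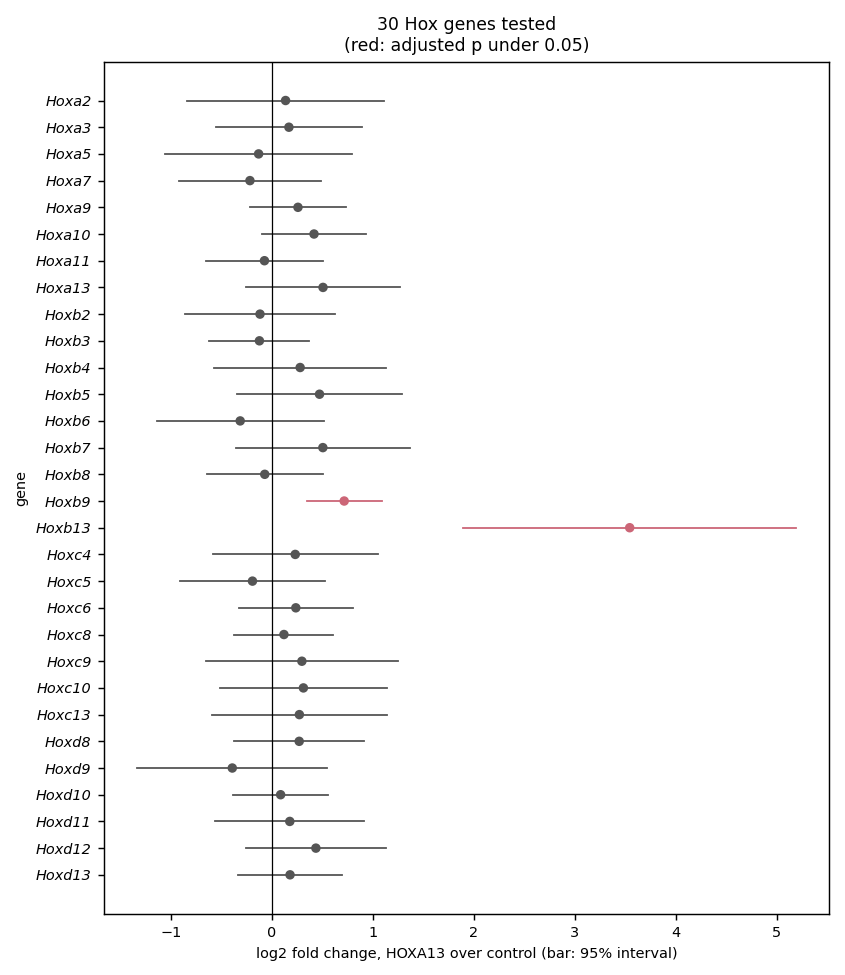
Log2 fold change of HOXA13 over control (horizontal axis) with its 95% interval for 30 of the Hox genes tested, by gene (vertical axis); red marks an adjusted p under 0.05. Hoxb13 lies at 3.54 and Hoxb9 at 0.72, and the other 28 genes lie between -0.39 and 0.51.

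Group 13 holds the mouse relatives of the transgene, and its 4 members differed widely in counts. *Hoxd13*, which with *Hoxa13* patterns digits and the genital tubercle (chr2:74506367-74509656 in mm9), was the highest *Hox* gene, with 300, 383 and 461 counts in controls against 415, 431 and 343 in *HOXA13* libraries. This was 20.9 ± 6.66 and 23.6 ± 2.43 CPM (SD, n = 3), with overlapping groups and a log2 fold change of 0.18 (SE 0.22, adjusted p = 0.595). Its direction turned without control replicate 1, to -0.07.

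The endogenous *Hoxa13* (chr6:52207693-52210874), the mouse counterpart of the transgene, had 16, 23 and 21 counts in control libraries against 25, 30 and 23 in *HOXA13* libraries. The groups overlapped in CPM, and the log2 fold change of 0.51 was not called (SE 0.33, adjusted p = 0.295, 95% interval -0.26 to 1.27). The *Hoxa13* counts came to 0.582%, 0.718% and 0.798% of the ENSG00000106031 counts in the 3 *HOXA13* libraries, and the *Hoxb13* counts to 0.558%, 0.599% and 0.312%. Whether reads of the transgene were counted under these mouse genes was not tested. *Hoxc13*, known for its role in hair and nails, had 19, 7 and 9 counts in control libraries against 11, 14 and 12 in *HOXA13* libraries, with a log2 fold change of 0.27 (SE 0.38, adjusted p = 0.637).

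*Hoxb13* (chr11:96055630-96058761), a gene of the tail bud, hindgut and prostate, was the member of the group called higher. It had 1, 4 and 0 counts in control libraries against 24, 25 and 9 in *HOXA13* libraries, or 0.0446, 0.272 and 0 CPM against 1.22, 1.38 and 0.68 CPM. Every *HOXA13* library was above every control library, and *HOXA13* replicate 3 was the lowest of its group. The log2 fold change was 3.54 (SE 0.72, adjusted p = 0.0085, 95% interval 1.89 to 5.19). All 3 *HOXA13* libraries and 0 control libraries were over the minimum of the filter, so its high values in *HOXA13* libraries let it be tested. Without the filter, when 10.8% of features were called higher, its adjusted p was 0.00528. With so few control counts the fold is imprecise, and it ran from 2.95 to 5.20 over the libraries left out, with an adjusted p of 0.0511 without *HOXA13* replicate 1. Its mean in *HOXA13* libraries was 1.09 ± 0.36 CPM (SD, n = 3).

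**Figure D4:**
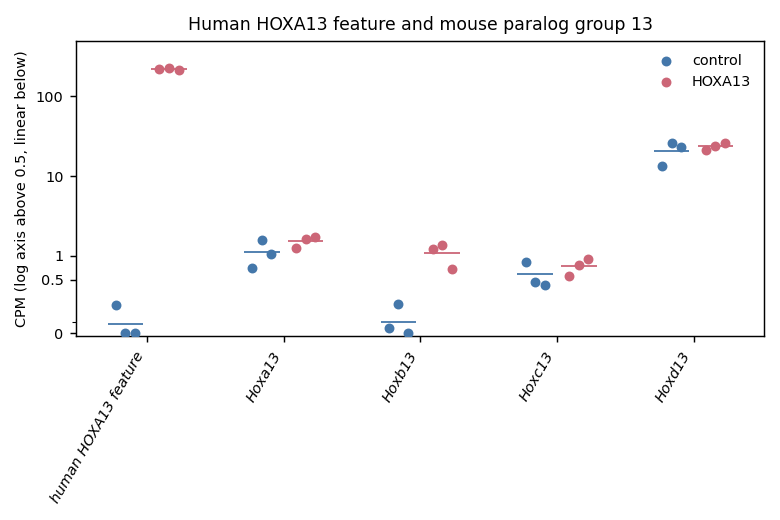
CPM per library (vertical axis, logarithmic above 0.5 CPM and linear below) of the human HOXA13 feature and the 4 mouse genes of paralog group 13, control in blue and HOXA13 in red, with means of 3 as lines. The human feature is at 222 CPM on average in HOXA13 libraries, Hoxb13 lies apart between the groups, and Hoxa13, Hoxc13 and Hoxd13 overlap.

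The promoters of the group 13 genes are shown because these genes share their paralog group with the transgene. Of the 4, *Hoxa13* and *Hoxd13* have an entry in the RefSeq table used (build GRCm38.p6), and *Hoxb13* and *Hoxc13* are named only, as is *Hoxb9*. The 250 bases before the annotated start were searched on both strands for CAATAAA and TCGTAAA, letters bound by posterior HOX proteins, and for TGATNGAT, letters bound by HOX with PBX partners. Neither promoter holds any of the 3, and G or C makes up 80% and 74.4% of their bases.
*Hoxa13*, minus strand, chr6:52260881-52261130: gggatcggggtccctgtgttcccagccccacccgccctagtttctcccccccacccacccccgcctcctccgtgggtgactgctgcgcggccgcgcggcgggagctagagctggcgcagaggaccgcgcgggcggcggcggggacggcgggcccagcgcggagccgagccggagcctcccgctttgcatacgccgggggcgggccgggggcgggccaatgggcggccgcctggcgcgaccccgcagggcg
*Hoxd13*, plus strand, chr2:74667975-74668224: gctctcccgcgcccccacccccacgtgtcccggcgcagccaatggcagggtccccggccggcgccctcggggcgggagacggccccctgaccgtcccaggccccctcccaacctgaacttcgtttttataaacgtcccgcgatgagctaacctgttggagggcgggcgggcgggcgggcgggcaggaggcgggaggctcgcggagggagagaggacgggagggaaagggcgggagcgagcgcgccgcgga

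Among the 24 promoters listed for 22 *Hox* genes, CAATAAA occurs in 1, TCGTAAA in 1 and TGATNGAT in 3 (*Hoxa2*, *Hoxb1* and *Hoxd11*), beside 4.2%, 0.478% and 1.82% of all 32851 promoters of the same length. *Hoxb8* and *Hoxb1* are printed here, chosen after the values were seen, with the matches in capitals. In *Hoxb8* they are TCGTAAA, 176 bases before the start, and CAATAAA read on the opposite strand, 120 bases before it. In *Hoxb1* the match to TGATNGAT lies 162 bases before the start. A match is a description of these letters and not a site.
*Hoxb8*, plus strand, chr11:96281655-96281904: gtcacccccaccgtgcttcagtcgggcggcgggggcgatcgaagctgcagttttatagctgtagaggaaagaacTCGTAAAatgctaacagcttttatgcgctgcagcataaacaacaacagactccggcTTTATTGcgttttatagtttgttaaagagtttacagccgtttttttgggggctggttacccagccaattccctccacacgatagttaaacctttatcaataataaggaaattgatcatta
*Hoxb1*, plus strand, chr11:96365508-96365757: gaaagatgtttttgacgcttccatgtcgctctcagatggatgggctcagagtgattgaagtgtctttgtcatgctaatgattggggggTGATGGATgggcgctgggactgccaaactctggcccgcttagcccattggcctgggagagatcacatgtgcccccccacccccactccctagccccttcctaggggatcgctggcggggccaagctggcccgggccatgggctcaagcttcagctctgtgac

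*Hoxb9* (chr11:96132771-96137909), a gene of the thoracic skeleton and the neighbour of *Hoxb13* in its cluster, was the other gene called. It had 125, 98 and 162 counts in control libraries against 206, 209 and 153 in *HOXA13* libraries, or 5.57, 6.66 and 8.19 CPM against 10.5, 11.5 and 11.6 CPM. The groups did not overlap. The means were 6.81 ± 1.31 and 11.2 ± 0.62 CPM (SD, n = 3), a log2 fold change of 0.72 (SE 0.16, adjusted p = 0.0136, 95% interval 0.34 to 1.09). The adjusted p rose to 0.0633 when *HOXA13* replicate 2 was left out and to 0.058 when replicate 3 was, both above 0.05, at log2 fold changes of 0.69. Relative to the fibroblast markers, *Hoxb9* was at 1.13, 0.91 and 1.12 CPM per 1000 in control and 1.56, 1.46 and 1.38 in *HOXA13* libraries, still without overlap. On the same scale *Hoxb13* and *Hoxa10* were also higher without overlap, *Hoxa7*, *Hoxa11*, *Hoxb1*, *Hoxb3* and *Hoxb8* were lower without overlap, and the other 31 genes overlapped. Among the 31 tested genes this is 3 higher and 4 lower, whereas 31.1% of all tested features did not overlap on this scale, 6.03% higher and 25.1% lower.

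*Hoxb13* and *Hoxb9* lie at the posterior end of the *Hoxb* cluster, 74009 bases apart, and features between and beside them were also higher. In chromosome order, and chosen after the values were seen, 7 consecutive features over 177.3 kb (chr11:95960640-96137909) had every *HOXA13* library above every control library. These are *Calcoco2*, *Ttll6*, *Hoxb13*, *Gm11538*, *Gm53*, *Mir196a-1* and *Hoxb9*. Of the 5 that could be tested 4 were called. Over all features, 23.5% were higher without overlap and 27.7% were called, 14.4% higher, and since the run was picked for this pattern, its counts are a description.

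*Calcoco2*, which encodes a receptor for selective autophagy, had 506, 156 and 562 counts in control libraries against 1582, 1201 and 1081 in *HOXA13* libraries (log2 fold change 1.87, SE 0.29, adjusted p = 0.00258). *Gm53*, a transcript between *Hoxb13* and *Hoxb9*, had 21, 23 and 14 counts in control libraries against 66, 58 and 42 in *HOXA13* libraries (log2 fold change 1.63, SE 0.29, adjusted p = 0.0052). *Ttll6*, a tubulin polyglutamylase, had 85, 27 and 80 counts against 117, 98 and 82 and was not called (log2 fold change 0.83, adjusted p = 0.0535). *Gm11538*, with 1, 0 and 0 against 4, 6 and 4 counts, was too low to test.

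The stretch ended on either side at genes with differences near 0. *Atp5g1*, a subunit of mitochondrial ATP synthase, had a log2 fold change of 0.04 (SE 0.13), and *Hoxb8*, which starts 5309 bases from the end of *Hoxb9*, had one of -0.07 (SE 0.25, adjusted p = 0.86). *Hoxb8* had 30, 28 and 33 counts in control libraries against 28, 26 and 24 in *HOXA13* libraries. Around the other clusters, 1 of 11 tested features within 250 kb was called, *Skap2* beside *Hoxa*, and 0 of 24 inside *Hoxa*, *Hoxc* or *Hoxd*, beside the 27.7% of all features. The landing site of KH2 cells is known to lie at *Col1a1* on the same chromosome (chr11:94797538-94814356), 1.24 Mb from *Hoxb13*. Between *Col1a1* and *Calcoco2* there were 22 tested features, of which 2 were called higher and 3 lower (22.7%), with a median log2 fold change of -0.14. The part of the insertion in the *Hoxb* values was not tested.

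**Figure D5:**
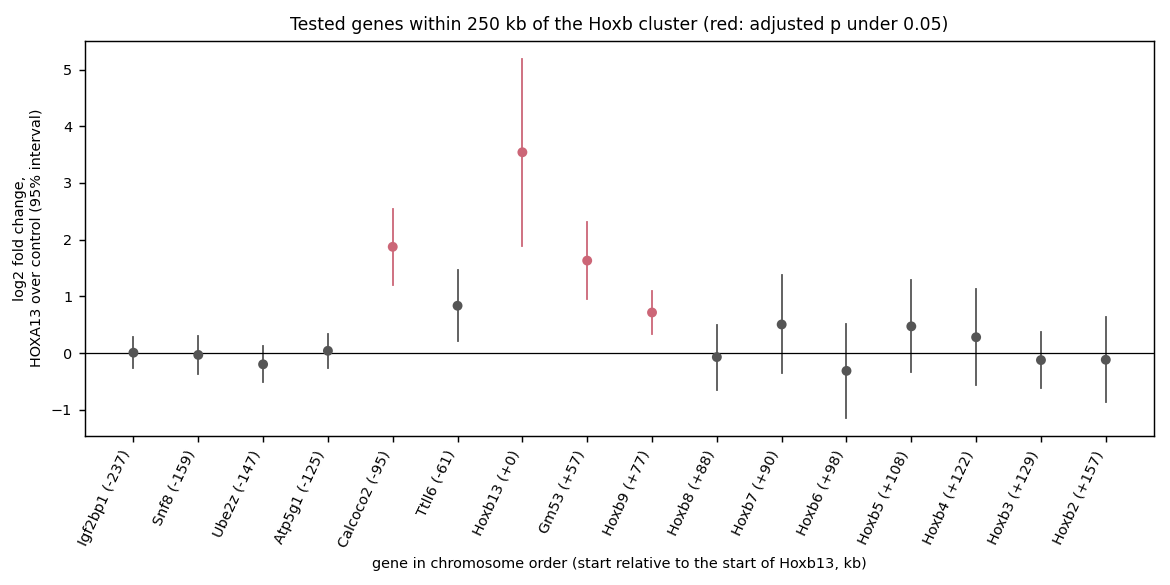
Log2 fold change of HOXA13 over control with its 95% interval (vertical axis) for each tested gene inside or within 250 kb of the Hoxb cluster, in chromosome order with the distance of its start from that of Hoxb13 in kb; red marks an adjusted p under 0.05. Calcoco2, Hoxb13, Gm53 and Hoxb9 are red, while Atp5g1 on one side and Hoxb8 on the other lie near 0.

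*Mir196a-1* lies 295 bases from *Gm53* and 6191 bases from *Hoxb9*. Its product targets posterior and central *Hox* messages and shares its seed with miR-196b from the *Hoxa* cluster, whereas miR-10a and miR-10b, encoded near the group 4 genes of *Hoxb* and *Hoxd*, share another. The mature RefSeq sequences (GRCm38.p6) are given with the seed, bases 2 to 8, in capitals.
mmu-miR-196a-5p: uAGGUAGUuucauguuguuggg
mmu-miR-196b-5p: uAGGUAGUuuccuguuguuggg
mmu-miR-10a-5p: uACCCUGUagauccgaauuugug
mmu-miR-10b-5p: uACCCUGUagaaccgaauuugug

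The *Mir196a-1* locus had 2, 1 and 3 counts in control libraries against 4, 8 and 6 in *HOXA13* libraries, and was too low to test. The libraries were made from poly(A) RNA, so these counts are of longer transcripts over the locus and not of the mature miRNA. *Mir10a*, *Mir10b*, *Mir196a-2*, *Mir196b* and *Mir615* had 0 counts in every library, which allows up to 3 counts in each.

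The remaining posterior genes, groups 9 to 12, gave no call. *Hoxa10*, a gene of the lumbar skeleton and the reproductive tract, had 108, 120 and 158 counts in control libraries against 153, 176 and 138 in *HOXA13* libraries. At 6.98 ± 1.88 and 9.30 ± 1.37 CPM (SD, n = 3) the groups overlapped, and the log2 fold change was 0.42 (SE 0.22, adjusted p = 0.204). *Hoxa11*, which acts with *Hoxd11* in the forearm and kidney, had 104, 108 and 142 counts against 85, 127 and 91, a log2 fold change of -0.07 (SE 0.25, adjusted p = 0.855). A share of 38.6% of its exon bases overlaps its antisense transcript, and with the strand setting of the counting not given, reads of the pair may not be separable. *Hoxa11os*, that transcript, had 63, 84 and 85 counts against 99, 114 and 64 (log2 fold change 0.35, adjusted p = 0.358). *Hoxa9*, *Hoxc9*, *Hoxc10*, *Hoxd10*, *Hoxd11* and *Hoxd12* had log2 fold changes between 0.09 and 0.44, and *Hoxd9* had one of -0.39. By exon length, *Hoxd13* led in control at 8.42 ± 2.68 CPM per kb (SD, n = 3), ahead of *Hoxb9* at 2.64 ± 0.51, *Hoxa11* at 2.37 ± 0.56, *Hoxc8* at 2.31 ± 0.49 and *Hoxa10* at 1.82 ± 0.49 CPM per kb. In control each of the last 4 overlapped its neighbour in this order, while every library of *Hoxb9* lay above every library of *Hoxa10*, and *Hoxb9* was at 4.34 ± 0.24 CPM per kb in *HOXA13* libraries.

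Of the 15 central genes, 12 were tested and none was called, beside the 27.7% of all features, with a median log2 fold change of 0.18. *Hoxc8*, a gene of the thoracic spine and the highest of them, had 90, 88 and 117 counts in control libraries against 105, 92 and 91 in *HOXA13* libraries, a log2 fold change of 0.12 (SE 0.21, adjusted p = 0.72). *Hoxb5* and *Hoxb7* had the highest values of the class, 0.47 and 0.50, and *Hoxb6* between them had the lowest, -0.31. Reads over shared bases may not be assignable to a single gene in these compact clusters. Of the *Hox* genes, 12 share exon bases with another gene on the same strand and 8 on the opposite strand. *Hoxb8* shares 40.4% of its exon bases with *Hoxb7*, and *Hoxd4* shares 67.4% with *Hoxd3*. *Hoxb13*, *Hoxb9* and the other group 13 genes share none.

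The anterior genes are the first to respond to retinoic acid and Wnt signals in differentiating cells. *Hoxb1*, a gene of the hindbrain, had 9, 2 and 3 counts in control libraries against 0, 1 and 0 in *HOXA13* libraries. *Hoxd1*, its paralog, had 11, 1 and 3 counts against 0, 2 and 0.

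*Hoxb1* and *Hoxd1* were too low for the filter. Without it, when 10.1% of features were called lower, their adjusted p was 0.0633 and 0.157. The library-scaled ratio of total counts, *HOXA13* over control, was 0.0755 (95% interval 0.00179 to 0.496, counting error only) for *Hoxb1* on 1 against 14 counts and 0.141 (0.0156 to 0.606) for *Hoxd1* on 2 against 15. Control replicate 1, which also had the highest sum of streak markers, held 9 of the 14 and 11 of the 15 control counts. The libraries of the groups did not overlap for *Hoxb1*, while those of *Hoxd1* did. Of the other untested genes, *Hoxa4* had 21 counts in all control and 17 in all *HOXA13* libraries, *Hoxa6* had 23 and 10, *Hoxd3* had 19 and 21, and *Hoxd4* had 19 and 19, with overlapping groups in each.

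Besides the 6 miRNA loci, the list of noncoding features in the clusters held 9 long noncoding RNAs. The 2 that were tested, *Hoxa11os* with 63 to 114 counts per library and *Hotairm1*, from the anterior end of *Hoxa*, with 8 to 14 (log2 fold change 0.03), were not called. The other 7 had at most 13 counts in any library. *Hottip*, transcribed beside *Hoxa13*, had 0, 2 and 0 counts in control libraries against 8, 2 and 2 in *HOXA13* libraries. *Haglr*, within *Hoxd*, had 6, 3 and 5 against 0, 0 and 3, and *Hotair*, within *Hoxc*, had 0 in every library. The list does not hold *Gm53*, which was called higher, or *Gm11538*, which was too low to test, both within *Hoxb*.

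Of the 22 listed genes that flank the clusters 19 were tested, while *Skap1*, *Evx2* and *Nfe2* were too low. Of the 19, 3 were higher (*Calcoco2*, *Skap2* at 0.59 and *Hibadh* at 0.43) and 2 lower (*Snx10* at -0.64 and *Cbx1* at -0.38), which is 26.3% called, close to the 27.7% of all features, with a median log2 fold change of 0.04. With 1 library left out the higher count ran from 2 to 5, with 5 without control replicate 1 or 2, and the lower count was 1 without control replicate 3 and without each of the *HOXA13* libraries in turn. *Evx1*, a posterior homeobox gene beside *Hoxa13*, had 424, 39 and 124 counts in control libraries against 93, 97 and 52 in *HOXA13* libraries, and was not called (log2 fold change -1.01, adjusted p = 0.241).

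Genes known to act with or on the clusters were counted in 3 lists, of which 44.4%, 53.8% and 50% of the tested members were called, beside the 27.7% of all features. Of the 9 TALE homeodomain partners, which bind DNA with HOX proteins, all were tested, 1 was higher and 3 lower. *Pknox1* rose by a log2 fold change of 0.40 (adjusted p = 0.0052), and *Meis3* fell by 0.72 (adjusted p = 0.0168) and *Pbx2* by 0.57 (adjusted p = 0.00797). The median of the list was -0.20. The count of lower partners was 1 without control replicate 3 and without each of the *HOXA13* libraries in turn. That of higher partners ran from 1 to 2 with 1 library left out.

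Among 13 tested signals and factors upstream of the clusters, 3 were higher and 4 lower. *Cdx1*, a caudal factor that activates central and posterior *Hox* genes, had 214, 238 and 124 counts in control libraries against 562, 517 and 436 in *HOXA13* libraries (log2 fold change 1.51, SE 0.28, adjusted p = 0.00625). *Cdx2*, its relative, had 130, 12 and 66 counts against 85, 45 and 53 and was not called. *Cdx4*, the third caudal gene, had 14, 5 and 13 counts against 2, 3 and 1, lower without overlap, and was too low to test. *Rarb*, a retinoic acid receptor, rose by 1.10 (adjusted p = 0.0186) and *Rara*, another, fell by 1.12 on the log2 scale (adjusted p = 0.0012). *T*, the primitive streak factor, had 4056, 155 and 1687 counts in control libraries against 27, 45 and 30 in *HOXA13* libraries (log2 fold change -5.53, adjusted p = 0.00519). *Fgf8*, a ligand of the streak, had 961, 43 and 365 counts against 1, 1 and 0, and is counted among the 4 lower, but it passed the filter through the control libraries alone. The higher count was 1 without control replicate 3 and without *HOXA13* replicate 1 or 2, and limma-voom gave 2 lower genes.

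Of the 22 tested Polycomb, Trithorax and related regulators, 6 were higher and 5 lower, with a median log2 fold change of 0.08. The largest differences were in *Jarid2*, a partner of Polycomb complex PRC2, at 0.91 (adjusted p = 0.00211), *Pcgf2*, a PRC1 subunit, at -0.74 (adjusted p = 0.00916), *Rnf2*, the PRC1 ubiquitin ligase, at 0.70 (adjusted p = 0.0067), and *Ezh2*, the PRC2 methyltransferase, at 0.66 (adjusted p = 0.000725). *Ezh2* had 188.6, 225.7 and 203.2 CPM in control and 340, 318.9 and 317.7 CPM in *HOXA13* libraries, without overlap. The higher count was 3 without *HOXA13* replicate 1 or 2, and the lower count was 2 without *HOXA13* replicate 1 and 3 without replicate 2 or 3. The 9 ParaHox and related genes other than *Cdx1*, *Cdx2*, *Evx1* and *Gbx2* were too low to test, and of these 4 only *Cdx1* was called, 25% beside the 27.7% of all features. With 1 library left out, the higher count of this list ran from 1 to 2 and the lower count from 0 to 2.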

How the data were processed

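RNA of 6 cultures, 3 control and 3 *HOXA13*, was sequenced from stranded poly(A) libraries. Per the labels, the authors mapped reads to mm9 with TopHat2 (2.0.14 in the submitters' processing notes) and counted them per gene with HTSeq 0.6.1p1, and deposited raw counts without normalization. Gene annotation, counting mode and strand setting are not given in the sources used here. Counts were filtered with filterByExpr (minimum count 10, minimum total 15), TMM-scaled and tested with edgeR 4.0.16 (R 4.3.3) by quasi-likelihood, without covariates, at a Benjamini-Hochberg adjusted p under 0.05 over 13846 features. The SE was taken from the fold change and its F statistic. Alternatives were RLE, library size alone, other filters, a replicate block, robust estimation, DESeq2 1.42.0, limma-voom 3.58.1, centring by chromosome and leaving out each library. The code was tested on simulated counts. Positions are GENCODE mm9. Named genes are the transgene, called *Hox* genes, group 13, *Hox* genes at 5 CPM or more, *Hox* genes at 3 counts or fewer, and up to 4 called genes per list; others were chosen after their values were seen. The members and lists were chosen with earlier results of these data known. Total counts were 13494135 to 21766589 per library. Single values of some tested genes are not reported here, and these genes remain in the sums and counts.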

Additional observations from a re-analysis of the deposited data

How the results depend on the processing

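The transgene passed in all 14 alternatives that gave a value (filtering at 10 counts in every library removes it), and no *Hox* gene was called lower in any. Over the 31 tested *Hox* genes, 432 alternative log2 fold changes did not change direction or call, 21 changed direction, 3 lost a call and 1 gained one. The number of *Hox* genes called higher was 2, and 1 with at least 10 counts in every library, where *Hoxb13* is not tested, and it ran from 1 to 3 with 1 library left out. Over all genes, leaving out 1 library gave 1134 to 2428 higher and 904 to 2579 lower, fewest without *HOXA13* replicate 1, and library size alone gave 1576 higher and 2500 lower against 1994 and 1842. Same-numbered libraries did not deviate together (correlations -0.015, -0.045 and 0.018). With 3 libraries per group this cannot show whether the cultures were handled in pairs. The replicate block gave 1696 higher and 1476 lower genes and the same 2 *Hox* calls. Direction turned for *Hoxa5* with limma-voom (0.10) and for *Hoxb8* with each chromosome centred (0.035). With 1 library left out it turned in *Hoxa2* (-0.18 to 0.43), *Hoxa3* (-0.12 to 0.37), *Hoxa5* (-0.51 to 0.10), *Hoxa7* (-0.43 to 0.0089), *Hoxa11* (-0.27 to 0.13), *Hoxb2* (-0.38 to 0.25), *Hoxb4* (-0.082 to 0.57), *Hoxb8* (-0.21 to 0.031), *Hoxc4* (-0.0067 to 0.50), *Hoxc5* (-0.42 to 0.12), *Hoxc8* (-0.059 to 0.21), *Hoxc9* (-0.046 to 0.60), *Hoxd11* (-0.15 to 0.40) and *Hoxd13* (-0.068 to 0.36). None of these was called. The cause was not tested. Relative to fibroblast markers, added after seeing the data, the log2 ratios of the summed clusters were -0.05, 0.14, -0.07 and -0.04 for *Hoxa*, *Hoxb*, *Hoxc* and *Hoxd*, against 0.17, 0.36, 0.16 and 0.17 in CPM. Summed over the other 8 *Hoxb* genes, also added after seeing the data, the *Hoxb* ratio was -0.0069. At this depth *Hoxc11* and *Hoxc12*, at 3 counts or fewer in every library, could not be compared.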
